A study of Mus musculus with 6 samples.

Results

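The messenger RNAs of 37 genes that release and recycle synaptic vesicles were read in the tissue around a brain haemorrhage. They were taken by gene symbol from a table of 24459 genes, all 37 were found there once each, and 36 had enough counts to be tested. They were chosen for their role in the vesicle cycle, with earlier results of these data known. The rule itself used gene symbols and no measured value. The tissue was perihematomal brain, the rim around the clot, of wild-type mice killed on day 5 after experimental intracerebral haemorrhage (ICH, a bleed into the brain). The bleed was common to both groups, and unbled brain was not analysed here. After the bleed, 3 samples came from mice given TEPP-46, a small-molecule activator of pyruvate kinase M2, and 3 from mice given vehicle on the same schedule. Strain, sex, age, dose, and whether tissue of several animals was pooled are not stated in the labels, and nothing says that samples of a group are separate animals. The p-values therefore cover only the spread among these samples, which may be technical. RNA was read as long nanopore cDNA reads, with 5286426 to 6025064 gene counts per library. The vehicle libraries are named C1, C2, C4 and the TEPP-46 libraries T1, T2, T3 after their columns, and values per library are always listed in that order.

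A synaptic vesicle fuses with the presynaptic membrane when the SNARE protein on the vesicle zips together with its partners on the plasma membrane. Synaptotagmins sense the calcium that enters with an action potential, complexins hold and then release the partly assembled machine, and scaffold proteins of the active zone keep vesicles beside calcium channels. After fusion, dynamin, amphiphysin, endophilin and synaptojanin retrieve and uncoat the membrane, and synapsins tether the refilled vesicles in a reserve cluster. Most of these proteins are made by neurons, and their messenger RNAs are widely used as a measure of neuronal RNA in brain tissue.

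No gene of the set passed the test between the groups. By edgeR's quasi-likelihood F test, none of the 36 tested genes reached an adjusted p under 0.05, over all 14441 genes tested (0% called), and Sh3gl2 came nearest at an adjusted p of 0.766. With p left unadjusted and under 0.05 (5.93% of all genes in either direction), 1 was lower in TEPP-46 (Sh3gl2; 4.05% of all genes) and 0 were higher (1.88% of all genes). The groups did not overlap in CPM (counts scaled by the library's total) for 1 gene that was higher in every TEPP-46 library, Sv2a, and 1 that was lower, Sh3gl2, against 11.4% of all genes tested in either direction, 5.67% and 5.76% in each. The log2 fold changes (TEPP-46 over vehicle) ran from -0.48 to 0.56, 16 above and 20 below 0, with a median of -0.029 against 0.0068 over all genes tested. For 32 of the 36 the 95% interval of the log2 fold change lay within 1 unit of 0, which is a factor of 2 either way. The exceptions were Doc2b, Sv2c, Syn2 and Dnm1.

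No gene of the set was called by other tools or with single libraries left out. DESeq2 called none of its genes (0.551% of all genes) and limma voom none (0%). In the edgeR fits with 1 library left out, none passed at an adjusted p under 0.05, where 0.291% of all genes did without C2 and 0% without any other. With p unadjusted and under 0.05, the genes of the set lower in TEPP-46 numbered 0 without C1 (3.37% of all genes), 3 without C2 (5.67% of all genes), 1 without C4 (2.62% of all genes), 1 without T1 (2.71% of all genes), 0 without T2 (3.51% of all genes) and 0 without T3 (3.9% of all genes). The 3 without C2 were Sh3gl2, Dnm1 and Syn2. Higher genes numbered 1 without C1 (3.54% of all genes), 0 without C2 (4.51% of all genes), 0 without C4 (1.59% of all genes), 0 without T1 (1.24% of all genes), 1 without T2 (1.33% of all genes) and 0 without T3 (1.62% of all genes). The single ones were Rph3a without C1 and Vamp1 without T2.

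**Figure D1:**
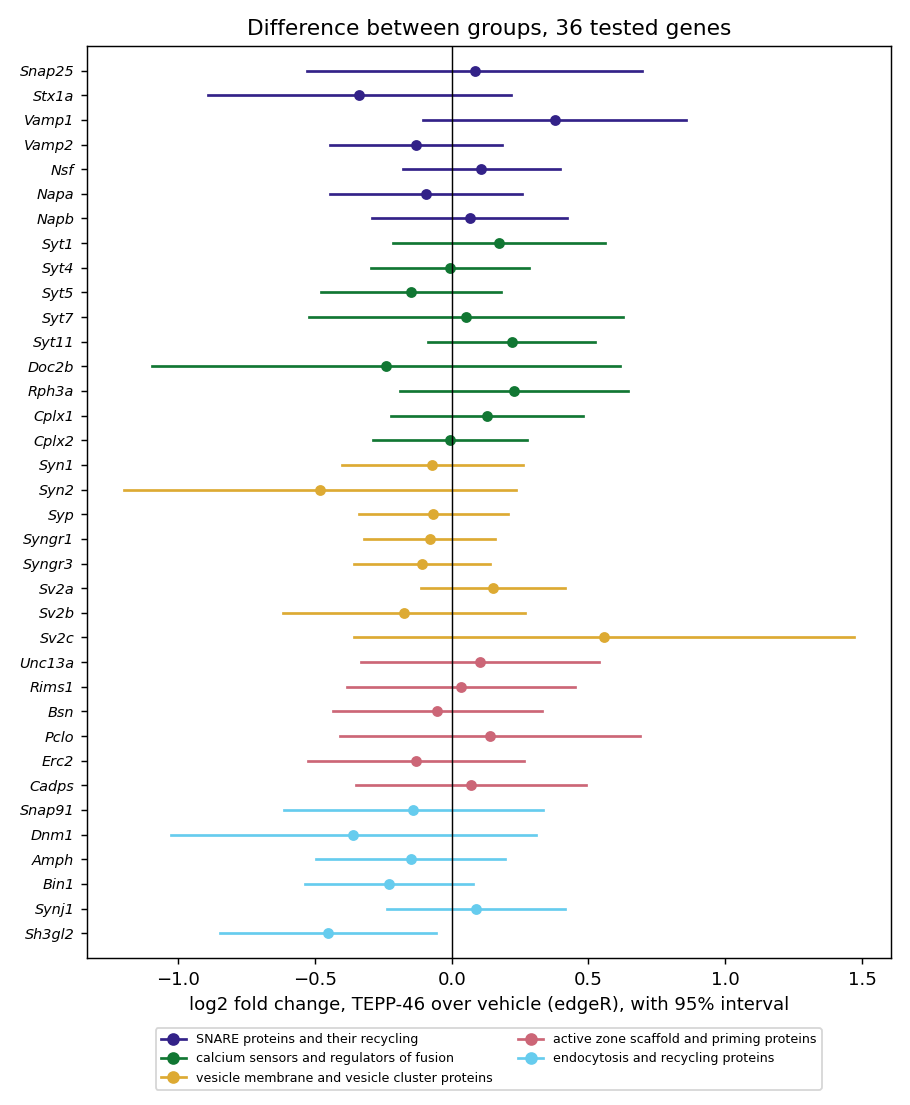
Log2 fold change of each of the 36 tested genes, TEPP-46 over vehicle (x axis), with its 95% interval from the edgeR fit (lines), coloured by role. Intervals of all genes but Sh3gl2 cross 0, and that of Sh3gl2 runs from -0.85 to -0.056 before any adjustment for the number of genes.

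The share of the transcriptome taken by the whole set differed between the groups by less than the spread within them. Its 37 genes held 1.07, 0.841 and 1.1% of all counts under vehicle, against 1.09, 1.02 and 0.875% under TEPP-46. Means were 1.005 ± 0.142% in vehicle and 0.996 ± 0.11% in TEPP-46 (n = 3 each, SD). The low libraries were C2 and T3, from different groups. C2 was the lowest of the 6 libraries for 17 of 36 genes and T3 for 9 (47.2 and 25%), against 18.8 and 13.1% of all genes tested. Neither was the highest for any gene of the set. C4 was the highest for 13 and C1 for 10 (36.1 and 27.8%), against 24.2 and 15% of all genes tested. In bulk tissue, fewer neurons and less of these RNAs per neuron cannot be told apart.

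Cell type markers also differed between the libraries, and the lists did not all differ in the same way. Relative to its mean over the 6 libraries, the average log2 level of the tested vesicle genes was 0.11 in C1, -0.21 in C2, 0.11 in C4, 0.075 in T1, 0.071 in T2 and -0.15 in T3. The 12 microglia and macrophage markers, all tested and none at 0, were at -0.63 in C1, 1.35 in C2, -1.50 in C4, -0.43 in T1, 0.49 in T2 and 0.72 in T3, and their summed level was 729.8 to 7307 CPM in vehicle and 1484 to 4514 CPM in TEPP-46. C2 and T3, lowest for the vesicle genes, were the highest 2 libraries for these markers. The same 2 libraries were highest for 8 astrocyte markers, at 0.17 and 0.15, and for 4 red blood cell markers, at 0.83 and 0.34. They were also highest for 5 endothelial markers, at 0.28 and 0.11. All markers of these lists were tested and none was at 0. General neuron markers outside the vesicle set, 12 of 12 tested and none at 0, were also lowest in C2 and T3, at -0.12 and -0.12, with summed levels of 4447 to 4953 CPM in vehicle and 4524 to 5088 CPM in TEPP-46. Lists of particular neurons split in C2. Cortical excitatory neuron markers (7 of 7 tested, none at 0) were lowest in the same libraries, at -0.43 in C2 and -0.32 in T3. Striatal projection neuron markers (9 of 9 tested, none at 0) were highest in C2, at 0.53, and at 0.050 in T3. Inhibitory interneuron markers (7 of 7 tested, none at 0) were at -0.12 in C2 and -0.018 in T3, and lowest in C1, at -0.13. Thalamus markers (5 of 5 tested, none at 0) were at -0.39 in C2 and 0.52 in T3, and lowest in C4, at -1.36. Oligodendrocyte markers (8 of 8 tested, none at 0) summed to 5370.2 CPM in C4 and to 13193 to 15374 CPM in the others. Choroid plexus markers (6 of 6 tested) summed to 209 and 182 CPM in C2 and C4, with Folr1 at 0 in C4, and to 2244 to 4982 CPM in the others. The part of these markers in the vesicle gene values was not tested.

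**Figure D2:**
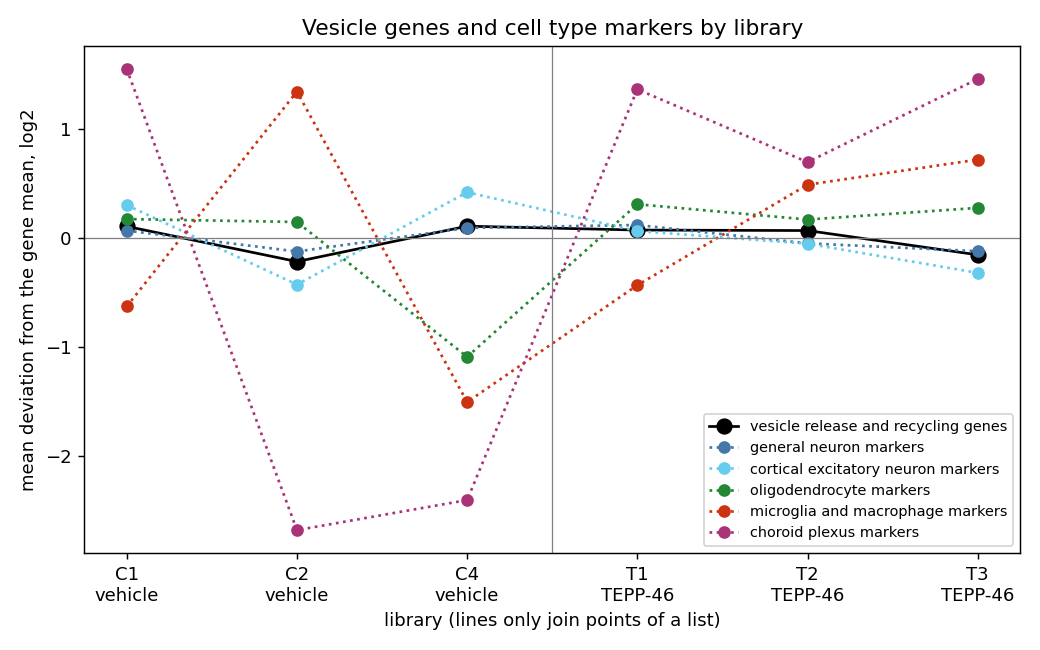
Mean deviation of each gene list from its genes' means over the 6 libraries, in log2 units (y axis), by library (x axis). The vesicle genes (black) stay between -0.21 and 0.11, while microglia and macrophage markers run from -1.50 in C4 to 1.35 in C2.

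**Figure D3:**
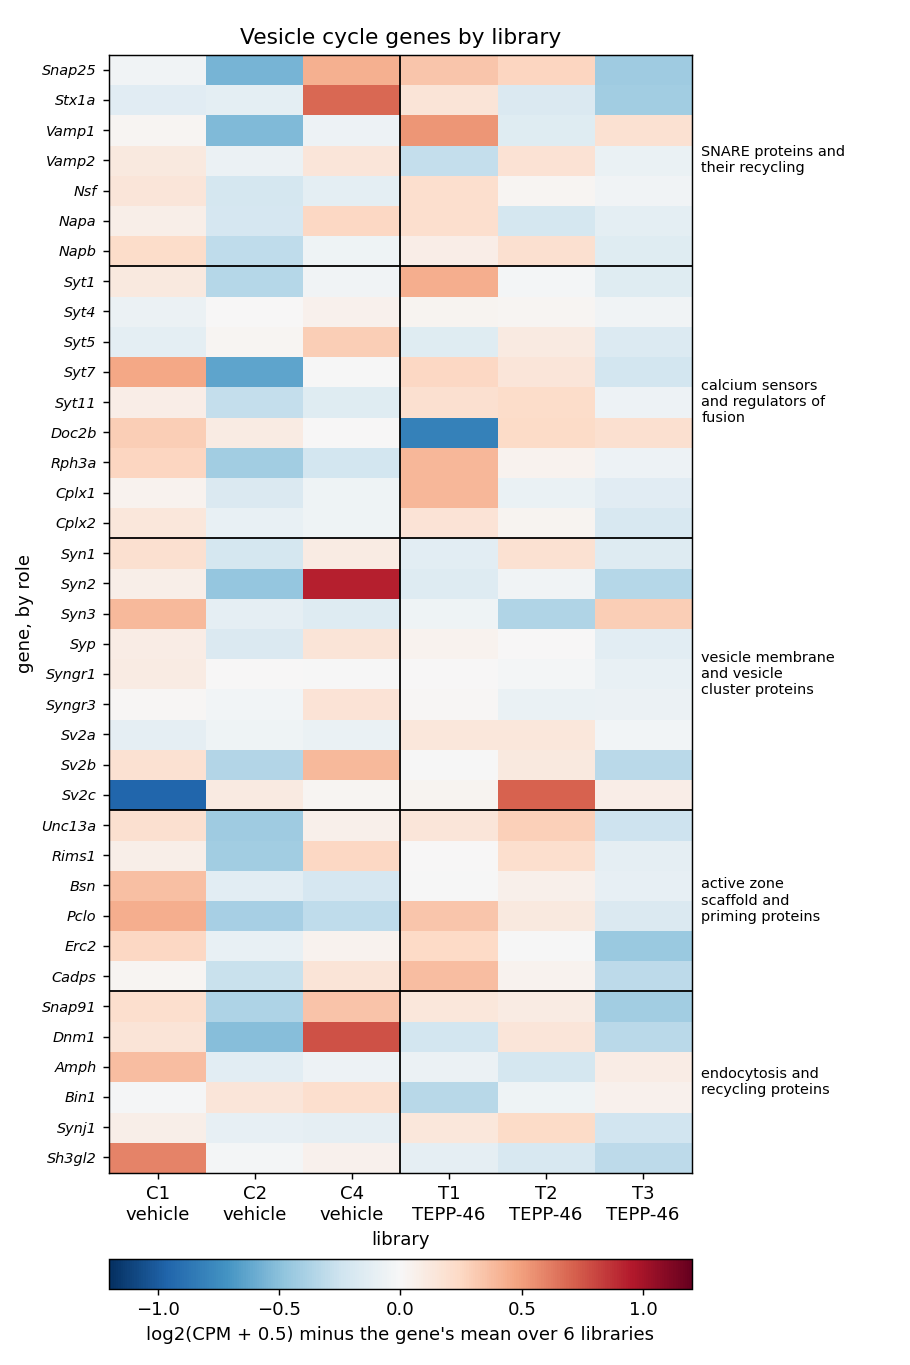
Each of the 37 genes (rows, grouped by role) in each library (columns), as the log2 of CPM plus 0.5 minus the gene's own mean over 6 libraries; red is above and blue below that mean. C2 and T3 are mostly blue, and Syn2, Dnm1 and Stx1a stand out in red in C4.

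The 7 genes of the SNARE complex and its recycling held none that passed the test. Their median log2 fold change was 0.066, 4 above and 3 below 0, and 0 passed at an adjusted p under 0.05. Vamp2 (chr11:69088490-69092384, GRCm38), the main SNARE protein of forebrain vesicles, was at 643, 564 and 656 CPM under vehicle, against 484, 669.6 and 561 CPM under TEPP-46. The groups overlapped, and its log2 fold change was -0.13 with SE 0.14 (95% interval -0.45 to 0.19; edgeR adjusted p = 0.985). Nsf (chr11:103821782-103954056), the ATPase that pulls spent SNARE complexes apart, was at 420.4, 329 and 350.1 CPM under vehicle, against 438, 387 and 369.7 CPM under TEPP-46. The 2 groups of Nsf overlapped too, and its log2 fold change was 0.11 with SE 0.13 (95% interval -0.18 to 0.39; edgeR adjusted p = 0.986). Vamp1 (chr6:125215551-125245964), the close relative of Vamp2 that serves motor and other fast synapses, had the highest log2 fold change of these genes. It was at 42.9, 28.9 and 40.3 CPM under vehicle, against 60.9, 38.1 and 47.7 CPM under TEPP-46, with T1 above all others and C2 below all. The log2 fold change was 0.38 with SE 0.21 (95% interval -0.10 to 0.86; edgeR adjusted p = 0.919), and an unadjusted p under 0.05 was reached only in the fit without T2, at an unadjusted p of 0.0456. In vehicle, Vamp2 was at 621 ± 50 and Vamp1 at 37.4 ± 7.41 CPM (SD, n = 3). Per kilobase of the longest coding transcript, they were at 282 ± 22.7 and 12.4 ± 2.46 CPM. Whether long-read counts need this division was not tested, and Vamp2 was above Vamp1 with and without it. At the other end, Stx1a (chr5:135023482-135051100), the plasma membrane syntaxin, was at 211, 214 and 374 CPM under vehicle, against 259, 206 and 174 CPM under TEPP-46. Only C4 lay apart from the other libraries. With all libraries its log2 fold change was -0.34 with SE 0.24 (95% interval -0.89 to 0.22; edgeR adjusted p = 0.965), and without C4 it was -0.011. Napa and Napb, which couple Nsf to the complex, had log2 fold changes of -0.093 (-0.44 to 0.26) and 0.066 (-0.29 to 0.42).

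Snap25 (chr2:136713453-136782428), the plasma membrane partner with 2 SNARE helices, has a pair of mutually exclusive coding exons. The upstream copy gives SNAP-25a, which prevails in the developing brain, and the downstream copy SNAP-25b, the main form of the adult brain. Both are shown because the choice between them marks neuronal maturation; capitals mark the 31 of 118 bases that differ (GENCODE M21 transcripts, GRCm38, plus strand, inside the coding part).
Snap25-202 upstream exon, chr2:136769743-136769860: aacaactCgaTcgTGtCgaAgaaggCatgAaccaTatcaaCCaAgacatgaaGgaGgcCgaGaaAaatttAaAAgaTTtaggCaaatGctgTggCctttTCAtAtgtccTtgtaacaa
Snap25-201 downstream exon, chr2:136770057-136770174: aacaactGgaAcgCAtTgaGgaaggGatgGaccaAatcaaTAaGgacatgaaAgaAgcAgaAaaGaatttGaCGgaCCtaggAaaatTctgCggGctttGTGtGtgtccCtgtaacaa
The Snap25 gene was at 359, 251 and 496 CPM under vehicle, against 465, 441 and 275 CPM under TEPP-46. C2 and T3 were the low libraries, 1 in each group, and its log2 fold change was 0.084 with SE 0.27 (95% interval -0.53 to 0.70; edgeR adjusted p = 0.997). Of the counts given to these 2 isoforms, the upstream form Snap25-202 held 8.17, 4.57 and 3.42% under vehicle, against 7.2, 5.66 and 6.11% under TEPP-46. The downstream form thus held most of these counts in every library. The spread within vehicle was wide, from 3.42% in C4 (exact binomial 95% interval 2.5 to 4.55) to 8.17% in C1 (6.52 to 10.1). Means were 5.39 ± 2.48% in vehicle and 6.32 ± 0.795% in TEPP-46 (n = 3 each, SD; two-sided exact permutation test, p = 0.5, adjusted over 9 such shares 0.9). With 3 against 3 the smallest possible p is 0.1. Reads of a new Snap25 isoform, ONT.6887.2, equalled those of Snap25-201 within 1.31%, and which of the exons it holds was not read here.

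None of the calcium sensors or regulators of fusion passed either. Of 9 tested, 5 lay above and 4 below 0, the median log2 fold change was 0.052, and 0 passed at an adjusted p under 0.05. Syt1 (chr10:108497650-109010982), the calcium sensor for fast synchronous release, was at 1789.8, 1298 and 1603 CPM under vehicle, against 2226, 1622 and 1487 CPM under TEPP-46. T1 was above every other library and the rest of the groups overlapped. The log2 fold change was 0.17 with SE 0.17 (95% interval -0.21 to 0.56; edgeR adjusted p = 0.985), and without T1 it was -0.017. Cplx2 (chr13:54371349-54383917), the complexin of forebrain excitatory synapses, was at 992, 851 and 875 CPM under vehicle, against 1013, 927 and 789 CPM under TEPP-46. Its groups overlapped fully, and its log2 fold change was -0.0058 with SE 0.12 (95% interval -0.29 to 0.28; edgeR adjusted p = 0.998). Rph3a (chr5:120940499-121010092), rabphilin, a Rab3 effector on vesicles, had the highest log2 fold change here, at 445, 279 and 321 CPM under vehicle, against 491, 385 and 357 CPM under TEPP-46. C1 and T1 were the high libraries, and its log2 fold change was 0.23 with SE 0.19 (95% interval -0.19 to 0.64; edgeR adjusted p = 0.973). At the low end, Doc2b (chr11:75768966-75796049), a high-affinity sensor for spontaneous and late release, rested on 24, 22 and 19 counts in vehicle and 11, 24 and 22 in TEPP-46. T1 alone was low, the log2 fold change was -0.24 (-1.09 to 0.61), and it turned to 0.069 without T1.

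Among the other sensors, the library values differed in how far they spread. Syt4 (chromosome 18), a synaptotagmin that neurons induce with activity, was the most even gene of the set. It lay between 55.1 and 60.0 CPM over all 6 libraries, a highest-to-lowest ratio of 1.09, where the median ratio was 1.54 over the tested genes of the set and 1.74 over all genes tested with a count in every library. Syt7, the slow high-affinity sensor of asynchronous release, ranged from 58.9 CPM in C2 to 127 in C1, so that both extremes were vehicle libraries. Log2 fold changes were -0.15 (-0.48 to 0.18) for Syt5, 0.052 (-0.52 to 0.63) for Syt7, 0.22 (-0.086 to 0.52) for Syt11, which does not bind calcium, and 0.13 (-0.22 to 0.48) for Cplx1, the complexin of inhibitory and subcortical neurons.

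Proteins that sit on the vesicle or hold the cluster gave 2 values above and 6 below 0 among 8 tested of 9, with a median log2 fold change of -0.076 and 0 at an adjusted p under 0.05. Syp (chrX:7638471-7653256), synaptophysin, the most used marker of the vesicle membrane, was at 808, 669 and 845 CPM under vehicle, against 782, 761 and 692 CPM under TEPP-46. The groups overlapped, and its log2 fold change was -0.067 with SE 0.12 (95% interval -0.34 to 0.21; edgeR adjusted p = 0.997). Syngr3 (chr17:24685092-24689955), a synaptogyrin of neuronal vesicles, was at 279, 269 and 311 CPM under vehicle, against 279, 261 and 263 CPM under TEPP-46. The groups overlapped, and its log2 fold change was -0.11 with SE 0.11 (95% interval -0.36 to 0.14; edgeR adjusted p = 0.985). Syn2 (chr6:115134902-115282006), a synapsin of the reserve pool, was at 166, 115 and 304 CPM under vehicle, against 142, 155 and 125 CPM under TEPP-46. C4 lay far above the other 5 libraries, which overlapped. With all libraries its log2 fold change was -0.48 with SE 0.31 (95% interval -1.20 to 0.23; edgeR adjusted p = 0.943), and without C4 it was -0.0081. Its relative Syn1 stayed between 209 and 276 CPM, with a log2 fold change of -0.071 (-0.40 to 0.26). Syn3, the synapsin of young neurons, had 7 to 13 counts per library and was not tested.

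The SV2 proteins, glycoproteins that ready vesicles for calcium-triggered release, were present at unequal levels. Vehicle levels were 170 ± 42.6 CPM for Sv2b, 109 ± 1.87 for Sv2a and 3.17 ± 1.29 for Sv2c (SD, n = 3). Per kilobase of the longest coding transcript, they were 30.8 ± 7.72 CPM for Sv2b, 25.2 ± 0.431 for Sv2a and 0.348 ± 0.142 for Sv2c. The mean of Sv2a lay within 1 SD of that of Sv2b only after this division by length, and Sv2c was far below both either way. Whether counts of these long reads rise with transcript length was not tested. The levels of Sv2a and Sv2b are therefore not ranked by the divided values. Sv2a (chr3:96181151-96195521), the ubiquitous form and the target of levetiracetam, was at 107, 111 and 109 CPM under vehicle, against 127, 127 and 113 CPM under TEPP-46. Each TEPP-46 library was above each vehicle library, by a small margin, and the log2 fold change was 0.15 with SE 0.12 (95% interval -0.11 to 0.41; edgeR adjusted p = 0.973). Sv2c (chr13:95954594-96132577), the form of basal ganglia and brainstem neurons, had 9, 23 and 20 counts in vehicle and 23, 36 and 21 in TEPP-46. The groups overlapped, and its log2 fold change of 0.56 (-0.36 to 1.47) was the highest of the whole set at an edgeR adjusted p = 0.967. Striatal projection neuron markers were also lowest in C1, at 676 CPM summed over 9 tested of 9, none at 0. The other vehicle libraries had 986 to 1858 CPM and the TEPP-46 libraries 1239.7 to 1564 CPM. These markers were highest in C2, at 1858 CPM, where Sv2c was at 4.03 CPM, and Sv2c was highest in T2, at 6.40 CPM. The part of these markers in the Sv2c value was not tested. Sv2b had a log2 fold change of -0.17 (-0.62 to 0.27).

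Active zone and priming genes held none that passed the test. Of 6, 4 lay above and 2 below 0, with a median log2 fold change of 0.052 and 0 at an adjusted p under 0.05. Erc2 (chr14:27622428-28478537), the scaffold CAST, was at 368, 292 and 319 CPM under vehicle, against 366, 308 and 227 CPM under TEPP-46. T3 was lowest, the groups overlapped, and its log2 fold change was -0.13 with SE 0.18 (95% interval -0.53 to 0.26; edgeR adjusted p = 0.993). Cadps (chr14:12372563-12823079), which primes dense-core vesicles, was at 127, 104 and 139 CPM under vehicle, against 163, 129 and 101 CPM under TEPP-46. Its highest and lowest libraries were both TEPP-46, and its log2 fold change was 0.071 with SE 0.19 (95% interval -0.35 to 0.49; edgeR adjusted p = 0.997). Pclo (chr5:14514918-14863459), piccolo, one of the largest active zone scaffolds, was at 47.2, 26.3 and 28 CPM under vehicle, against 44, 37.7 and 30.7 CPM under TEPP-46. C2 and C4 were low, C1 and T1 high, and its log2 fold change was 0.14 with SE 0.24 (95% interval -0.41 to 0.69; edgeR adjusted p = 0.997). Log2 fold changes were 0.10 (-0.33 to 0.54) for Unc13a, the Munc13 protein without which vesicles do not become ready to fuse, 0.033 (-0.38 to 0.45) for Rims1, which links vesicles to calcium channels, and -0.052 (-0.43 to 0.33) for Bsn, the scaffold bassoon. For these 3 genes and Pclo the lowest library was a vehicle library, C2 for Unc13a, Rims1 and Pclo and C4 for Bsn.

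Genes of membrane retrieval held the value that came nearest to the test. Of 6, 1 lay above and 5 below 0, the median log2 fold change was -0.19, and 0 passed at an adjusted p under 0.05. Sh3gl2 (chr4:85205126-85639195), an endophilin that bends the membrane of the retrieved vesicle and recruits synaptojanin, was at 125, 80.9 and 85.5 CPM under vehicle, against 76.3, 71.9 and 66.1 CPM under TEPP-46. All 3 TEPP-46 libraries were below all 3 vehicle libraries, although T1 and C2 were close and C1 was far above the rest. The means were 71.4 ± 5.12 CPM in TEPP-46 and 97 ± 24.1 CPM in vehicle (n = 3 each, SD), and the log2 fold change was -0.45 with SE 0.18 (95% interval -0.85 to -0.056; edgeR adjusted p = 0.766). The unadjusted edgeR p was 0.0295. Without C1 the log2 fold change was -0.23, at an unadjusted edgeR p of 0.131. Synj1 (chr16:90936092-91011308), the lipid phosphatase needed to strip the clathrin coat, was at 190.3, 169 and 167 CPM under vehicle, against 199, 211 and 154 CPM under TEPP-46. The groups overlapped, and its log2 fold change was 0.089 with SE 0.14 (95% interval -0.24 to 0.41; edgeR adjusted p = 0.997). Bin1 (chromosome 18), a relative of amphiphysin that oligodendrocytes and microglia also make, was at 182, 204 and 211 CPM under vehicle, against 146, 178 and 191 CPM under TEPP-46. T1 and T2 lay below all vehicle libraries and T3 did not, and its log2 fold change was -0.23 with SE 0.14 (95% interval -0.54 to 0.076; edgeR adjusted p = 0.934). Snap91, a clathrin adaptor, and Amph, amphiphysin, had log2 fold changes of -0.14 (-0.61 to 0.33) and -0.15 (-0.49 to 0.19).

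Dnm1 (chr2:32308471-32353338, minus strand), dynamin 1, the GTPase that pinches vesicles off, was at 825, 517 and 1257 CPM under vehicle, against 634, 817 and 589 CPM under TEPP-46. C4 was the highest library and C2 the lowest, both vehicle, so that the TEPP-46 values lay inside the vehicle range. With all libraries its log2 fold change was -0.36 with SE 0.29 (95% interval -1.03 to 0.31; edgeR adjusted p = 0.973). Without C4 the log2 fold change was 0.012, and without C2 it was -0.62 at an unadjusted edgeR p of 0.013 and an adjusted p of 0.318. Dnm1, Syn2 and Stx1a thus shared 1 high library, C4, and each log2 fold change went to within 0.012 of 0 without it. C4 was also the library with the lowest oligodendrocyte and microglia marker levels and the highest cortical excitatory neuron markers, which summed to 4396 CPM there and 2936 to 3611 CPM in the others (7 of 7 tested, none at 0). The part of these markers in the C4 values was not tested.

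**Figure D4:**
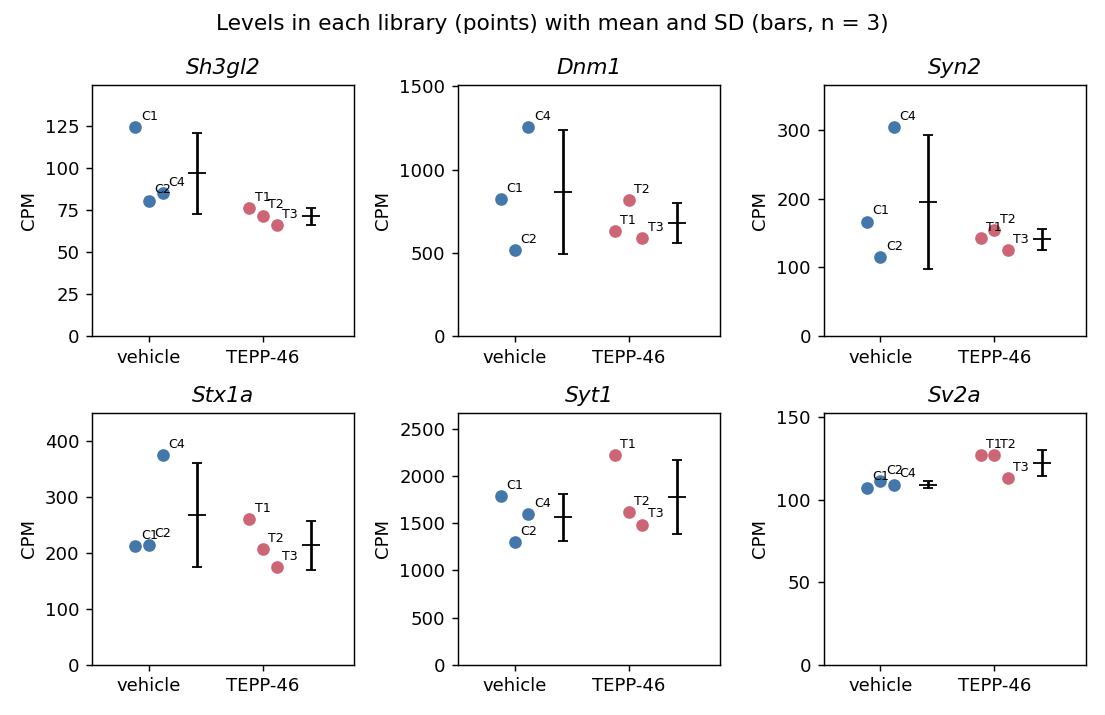
Levels in CPM (y axis, from 0) of 6 genes in each library (points, named), with the group mean and SD (bars, n = 3). Sh3gl2 and Sv2a are the genes whose groups do not overlap; in Dnm1, Syn2 and Stx1a the vehicle library C4 stands above the rest, and in Syt1 the TEPP-46 library T1 does.

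Dynamin 1 messenger RNA carries 1 of 2 alternative exons in the middle domain, through which dynamins assemble into a helix. Both copies are shown because the high library C4 also had the highest share of the downstream copy; capitals mark the 39 of 139 bases that differ (GENCODE M21, GRCm38, minus strand, coding).
Dnm1 upstream exon, chr2:32334682-32334820: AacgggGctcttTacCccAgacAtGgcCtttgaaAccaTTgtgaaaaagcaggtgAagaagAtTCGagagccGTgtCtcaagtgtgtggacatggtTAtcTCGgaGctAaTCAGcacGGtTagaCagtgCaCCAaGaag
Dnm1 downstream exon, chr2:32333066-32333204: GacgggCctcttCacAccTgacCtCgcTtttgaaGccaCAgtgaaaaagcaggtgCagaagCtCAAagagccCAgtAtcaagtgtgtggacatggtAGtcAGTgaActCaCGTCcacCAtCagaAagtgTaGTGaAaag
Over the annotated isoforms that hold either exon, the downstream copy took 41.5, 34.6 and 45.6% of counts under vehicle, against 36.2, 34.4 and 38% under TEPP-46. C4 (exact binomial 95% interval 43.7 to 47.4) and C1 (39.2 to 43.8) were the highest, and C2 lay within the range of the TEPP-46 libraries. The group means were 40.5 ± 5.54% in vehicle and 36.2 ± 1.8% in TEPP-46 (n = 3 each, SD; two-sided exact permutation test, p = 0.3, adjusted 0.9). The share of annotated isoforms with the shorter of 2 coding ends was 63.7 ± 0.945% in vehicle and 64.6 ± 1.8% in TEPP-46 (n = 3 each, SD; two-sided exact permutation test, p = 0.6). New Dnm1 isoforms were left out of both shares. Isoform counts of a gene can share reads, so these intervals cover counting error only and are too narrow if reads were divided.

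At the level of isoforms the set held 216 entries, 135 annotated and 81 new, and the new ones took 40.1% of the set's counts. Of 182 tested isoforms, 0 passed at an edgeR adjusted p under 0.05 (0% of all isoforms). At an unadjusted p under 0.05, 0 were higher (1.88% of all) and 2 lower (3.9% of all). The median log2 fold change was -0.015 against 0.0072 over all tested isoforms. DESeq2 called 0 of the set's isoforms (0.442% of all 33280 isoforms that it gave an adjusted p). At an unadjusted p under 0.05 it had 1 of 215 higher (0.399% of all) and 5 lower (1.93% of all). These 2 shares are over the 61616 isoforms that it gave an unadjusted p. The groups did not overlap for 7 isoforms (10.9% of all). Without C1, 15 of 184 tested isoforms of the set were higher at an unadjusted p under 0.05 (3.42% of all). Without C2, 22 of 184 were lower (5.52% of all). Isoforms of a gene can share reads, so these are not counts of independent results. The single isoform of the set that passed in any fit was Dnm1-201, at an edgeR adjusted p of 0.0446 and a log2 fold change of -1.41 without C2, where 0.509% of all isoforms passed. Dnm1-201 had 395, 200 and 761 counts under vehicle, against 225, 272 and 213 under TEPP-46. C4 was far above and C2 far below C1, all vehicle, and with all libraries the log2 fold change was -1.03 (SE 0.51, edgeR adjusted p = 0.954). With all libraries, both lower ones were Sh3gl2 isoforms with alternative coding ends. Sh3gl2-203 had 203, 139 and 128 counts under vehicle, against 121, 109 and 104 under TEPP-46, and Sh3gl2-204 had 198, 128 and 121 counts under vehicle, against 119, 107 and 100 under TEPP-46. In both, C1 was high and the TEPP-46 libraries were lowest in CPM. The counts of these 2 isoforms were nearly alike in every library. Whether they share reads is not known, so they need not be separate results. Their log2 fold changes were -0.58 (SE 0.19, edgeR adjusted p = 0.65) and -0.54 (SE 0.20, edgeR adjusted p = 0.743), and without C1 they were -0.36 and -0.30. The most abundant form, Sh3gl2-201, had 255, 190 and 195 counts under vehicle, against 207, 182 and 144 under TEPP-46, with a log2 fold change of -0.35 (edgeR adjusted p = 0.891). Dnm1-201, Sh3gl2-203 and Sh3gl2-204 were picked from their values.

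How the counts of a gene divide among its isoforms was tested in 33 genes of the set, and none passed (edgeR diffSpliceDGE, Simes adjusted p = 1.00 for the smallest; 0.0131% of all genes called). No other tool tested usage. The smallest unadjusted p-values belonged to Syt4, Syp and Vamp2, at 0.387, 0.448 and 0.727. Syt4-201 held 86.7 ± 2.95% in vehicle and 89.9 ± 2.22% in TEPP-46 of its gene's counts (n = 3 each, SD). Syp-201 held 68.9 ± 2.7% in vehicle and 69.3 ± 1.67% in TEPP-46, and Vamp2-201 80.4 ± 1.61% in vehicle and 76.5 ± 5.31% in TEPP-46 (n = 3 each, SD). The lowest Vamp2-201 share was in T1, at 71.5%, where a new isoform, ONT.1639.4, held 27.5%.

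Syngr1 (chr15:80091334-80119501), synaptogyrin 1, was nearly flat as a gene and uneven as isoforms. The gene lay between 187 and 213 CPM in all libraries, with a log2 fold change of -0.081 (-0.32 to 0.16). Its main annotated isoforms share the first 3 coding exons and end in different ones. Both coding ends are shown because the shares of the 2 forms differed more between libraries than any other pair compared (GENCODE M21, GRCm38, plus strand, coding part only, no capitals since the ends do not align).
Syngr1-202 end, chr15:80113166-80113255: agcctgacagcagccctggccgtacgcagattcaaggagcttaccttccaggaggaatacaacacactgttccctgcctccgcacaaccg
Syngr1-201 end, chr15:80115855-80116073: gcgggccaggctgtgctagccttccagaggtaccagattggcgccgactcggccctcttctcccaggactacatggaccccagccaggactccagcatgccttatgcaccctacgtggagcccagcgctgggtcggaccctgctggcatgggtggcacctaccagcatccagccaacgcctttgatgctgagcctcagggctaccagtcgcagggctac
Syngr1-202, the shorter protein, held 9.73, 24.1 and 6.76% of the counts of both under vehicle, against 11.2, 18.7 and 19.4% under TEPP-46. The extremes were both vehicle, 6.76% in C4 (exact binomial 95% interval 5.3 to 8.46) and 24.1% in C2 (21.6 to 26.7). The group means were 13.5 ± 9.26% in vehicle and 16.4 ± 4.55% in TEPP-46 (n = 3 each, SD; two-sided exact permutation test, p = 0.8, adjusted 0.9).

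**Figure D5:**
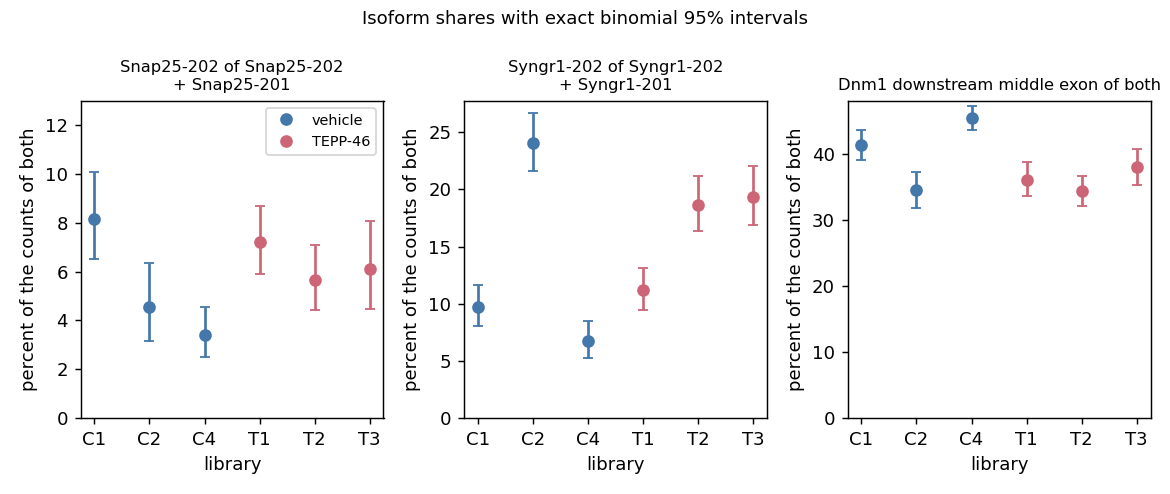
Share of 1 isoform or exon among the counts of both alternatives (y axis, percent, from 0) in each library (x axis), with exact binomial 95% intervals. For Snap25 and Syngr1 the vehicle libraries span the whole range of values, and for Dnm1 the vehicle libraries C1 and C4 are highest.

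Other genes of the vesicle cycle, a list of 95 that holds further synaptotagmins, Rab proteins, transmitter transporters, adaptors and scaffolds, also held none that passed. Of 90 tested genes, 0 passed at an edgeR adjusted p under 0.05. At an unadjusted p under 0.05, 3 were higher and 4 lower (3.33 and 4.44%, against 1.88 and 4.05% of all genes), and 47 lay above and 43 below 0, with a median of 0.020. The groups did not overlap in CPM for 4 higher and 3 lower genes of the 90, where 5.67 and 5.76% of all genes did not. Picalm, a clathrin adaptor that helps retrieve Vamp2, was at 57.3, 71.2 and 77.9 CPM under vehicle, against 80.8, 117 and 96.9 CPM under TEPP-46 (log2 fold change 0.50, SE 0.18, edgeR adjusted p = 0.708). Each TEPP-46 library lay above each vehicle library. Dnm3, another dynamin, was at 74.5, 63.5 and 35.6 CPM under vehicle, against 81.8, 92.1 and 85.9 CPM under TEPP-46 (log2 fold change 0.57, SE 0.24, edgeR adjusted p = 0.813). It was higher in every TEPP-46 library than in every vehicle library, and C4 was the lowest. Unc13b, a priming protein related to Unc13a, was at 9.18, 6.32 and 12.7 CPM under vehicle, against 5.15, 5.16 and 3.96 CPM under TEPP-46 (log2 fold change -0.99, SE 0.31, edgeR adjusted p = 0.657). Each TEPP-46 library lay below each vehicle library. Doc2a, the relative of Doc2b in excitatory neurons, was at 36.3, 23.3 and 45.6 CPM under vehicle, against 17.8, 19.9 and 24.1 CPM under TEPP-46 (log2 fold change -0.78, SE 0.25, edgeR adjusted p = 0.657). The groups of Doc2a overlapped, with T3 just above C2.

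The promoter windows of the set had a higher median GC and CpG content than those of all genes, as a description with no test. RefSeq promoter windows (250 bases before to 50 after a start, GRCm38.p6) were at hand for 28 of the 37 genes, 36 windows in all, with a median of 61.8% GC and 19 CpG, against 52.7% and 7 over 32851 windows. The GC box GGGCGG, on either strand, stood in 21 (58.3%) of the set's windows and in 35.7% of all. A TATAAA box stood in 2 (5.56%) against 13.6%. The cyclic AMP response element TGACGTCA stood in 3 (8.33%) against 1.79%. The left part of RE1, TTCAGCACC, the element through which the repressor REST silences neuronal genes outside neurons, stood in 2 (5.56%) against 0.371%. The right part, GGACAGCGC, stood in 1 (2.78%) against 0.405%. The 3 with the cyclic AMP element were those of Napa, Sh3gl2 and Syn1. A match describes letters in a window and shows no binding.

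The 2 windows with an RE1 part, those of Syn1 and Unc13a, and that of Sh3gl2, the gene nearest to the test, are shown 5′ to 3′ on the strand of the gene; capitals mark RE1 parts and TGACGTCA on either strand.
Syn1, chrX:20920869-20921168, minus strand: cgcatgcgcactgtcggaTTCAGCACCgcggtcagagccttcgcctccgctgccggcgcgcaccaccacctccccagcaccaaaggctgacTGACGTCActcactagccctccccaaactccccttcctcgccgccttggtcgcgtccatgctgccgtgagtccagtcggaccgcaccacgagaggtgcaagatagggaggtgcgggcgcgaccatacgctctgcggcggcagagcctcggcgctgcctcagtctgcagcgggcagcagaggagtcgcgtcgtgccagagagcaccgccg
Unc13a, chr8:71671708-71672007, minus strand: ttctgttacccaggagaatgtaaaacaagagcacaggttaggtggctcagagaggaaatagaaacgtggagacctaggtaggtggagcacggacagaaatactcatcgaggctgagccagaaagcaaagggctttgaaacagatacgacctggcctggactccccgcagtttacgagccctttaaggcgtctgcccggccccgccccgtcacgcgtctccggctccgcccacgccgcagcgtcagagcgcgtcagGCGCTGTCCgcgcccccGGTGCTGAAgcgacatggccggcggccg
Sh3gl2, chr4:85205206-85205505, plus strand: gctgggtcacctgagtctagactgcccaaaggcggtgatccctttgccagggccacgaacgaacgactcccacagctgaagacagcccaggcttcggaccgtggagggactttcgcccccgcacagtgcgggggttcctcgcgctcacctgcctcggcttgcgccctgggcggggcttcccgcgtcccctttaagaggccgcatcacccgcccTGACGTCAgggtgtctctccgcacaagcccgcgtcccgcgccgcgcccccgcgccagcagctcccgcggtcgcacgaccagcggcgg
Syn1 and Sh3gl2 hold the cyclic AMP element, and Unc13a holds both RE1 parts, read from the opposite strand. Of these genes, Syn1 had a log2 fold change of -0.071, Unc13a of 0.10 and Sh3gl2 of -0.45.

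The authors' deposited table calls all 37 genes of the set unchanged. In the authors' deposited table, their log2 fold changes run from -0.39 to 0.28, and 1 p-value is under 0.05, that of Sh3gl2 at 0.023.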

How the data were processed

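Members and lists were chosen with earlier results of these data known. The authors deposited raw counts per gene and per isoform for 6 libraries, per the file headers, made with a nanopore cDNA-PCR kit, per the labels' protocols. The build GRCm38 and DESeq 1.10.1 are named per the submitters' processing notes. Aligner, counter, use of strand and handling of reads shared by isoforms or overlapping genes: not given in the sources used here. Deposited p-values, false discovery rates and log2 fold changes of the authors' deposited comparison, other values with DESeq2 named per the file headers, were used only where named. 12 other columns of values per library were not used. Column letters tie libraries to groups (C vehicle, T TEPP-46), and column numbers match no numbered sample.

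CPM was computed from the counts over 5286426 to 6025064 gene counts per library. Precision is limited by 3 libraries a group and, for genes of few counts, by counting error. All genes, and all isoforms, were fitted with edgeR 4.0.16 in R 4.3.3 (filterByExpr, TMM, robust quasi-likelihood F test, group as the only term, Benjamini-Hochberg over the whole table). SEs and 95% intervals were derived from the fitted value, its F statistic and its degrees of freedom, and the test was checked on simulated data. Values in every library are given for genes with an unadjusted p under 0.05 and, in each role, the 2 with the highest mean CPM and those with the highest and lowest log2 fold change; for other vesicle cycle genes, the 2 with the smallest unadjusted p in each direction. Snap25, Syngr1, Sv2a, Syt4 and the isoform pairs were picked after seeing values. Shares carry exact binomial intervals. Alternatives were other scalings, no low-count filter, limma voom 3.58.1, DESeq2 1.42.0 and leaving out each library.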

Additional observations from a re-analysis of the deposited data

How the results depend on the processing

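No paired analysis was possible because the columns carry no number that ties them to the numbered samples. No gene of the set was called under any setting. Over all genes, the count called was 0 with edgeR, 0 with limma voom, 85 with DESeq2 and 0 to 43 with 1 library left out, the highest without C2. Genes of the set at an unadjusted p under 0.05 numbered 0 to 1 higher and 0 to 3 lower with 1 library left out, the 3 lower ones without C2 (Sh3gl2, Dnm1, Syn2) and none lower without C1, T2 or T3; the higher one was Rph3a without C1 and Vamp1 without T2. The median log2 fold change of the set was -0.13 to 0.038. All isoforms called numbered 0 in edgeR, 147 in DESeq2 and 0 to 178 with 1 library left out. Of the set's isoforms, 0 were called with all libraries and 0 to 1 with 1 left out (Dnm1-201 without C2). Isoforms of the set at an unadjusted p under 0.05 numbered 1 higher (0.399% of all) and 5 lower (1.93% of all) in DESeq2. With 1 library left out, 0 to 15 were higher, most without C1 (15 of 184, against 3.42% of all). In the same fits 2 to 22 were lower, most without C2 (22 of 184, against 5.52% of all). Genes with different isoform usage numbered 1 with all libraries and 0 to 1 with 1 left out. Of 19 genes of the naming rule and 2 Sh3gl2 isoforms, the direction held in 100 of 101 fits with other scalings, filters or tools, the exception being Cplx2 at 0.0063 with total counts only, and in 115 of 126 fits with 1 library left out. Where the sign turned, the ranges were -0.017 to 0.29 for Syt1, -0.44 to 0.069 for Doc2b, -0.087 to 0.090 for Cplx2, -0.15 to 0.0031 for Syp, -0.0061 to 0.45 for Pclo, -0.29 to 0.038 for Erc2, -0.11 to 0.23 for Cadps, -0.62 to 0.012 for Dnm1 and -0.0099 to 0.22 for Synj1. The causes of these moves were not tested.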

Other observations

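The order of the libraries by Syngr1-202 CPM, from low to high, was C4, C1, T1, T2, T3 and C2, the order by the mean deviation of the 12 microglia and macrophage markers. The mean deviations of the 8 astrocyte markers and of the 4 red blood cell markers gave that order too. Syngr1-202 had 107, 266 and 70 counts under vehicle, against 131, 197 and 186 under TEPP-46. T2 and T3 were close, at 35.038 and 35.048 CPM. Of 182 tested isoforms of the vesicle set, 1 had that order, Syngr1-202 (0.549%), which is below the share over all isoforms, 318 of 33854 tested (0.939%). Of the 36 tested genes of the set, 0 had it, against 1.13% of all genes tested. Syngr1-201 had 993, 839 and 966 counts under vehicle, against 1042, 858 and 774 under TEPP-46 and was highest in C1 and C4 in CPM. Of the counts of Bin1-202 and Bin1-201, Bin1-202 held 30.1, 34.6 and 21.8% under vehicle, against 27.9, 29.7 and 30.5% under TEPP-46. C2 was highest and C4 lowest for Bin1-202, and the libraries between them did not follow the order of the microglia and macrophage markers. Of the counts of Bin1-205 and Bin1-201, Bin1-205 held 35.1, 40.3 and 26.8% under vehicle, against 33.5, 40.7 and 40.7% under TEPP-46. There C4 was again lowest, but T2 and T3 lay just above C2. Bin1 isoforms of oligodendrocytes and microglia are known to differ from the neuronal ones. The isoforms of this paragraph were picked from their values. The part of cell content in their levels was not tested.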
